A study of Mus musculus with 4 samples.

Results

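Npas4 and 9 other fast activity-induced genes, namely Fos, Fosb, Junb, Egr1, Egr2, Egr3, Egr4, Nr4a1 and Ier2, were followed in the brains of mice with and without the RNA-editing enzyme ADAR2. These 10 genes were chosen by their measured difference between Adar2-/- and wild-type brains on these same arrays, so that difference is given below as a description and was not tested. Each gene matched 1 transcript cluster, a set of probes designed against a single transcribed locus, giving 10 clusters of 33793 on the array. Total RNA came from the whole brain of female adults (strain 129SV) and was hybridized to 4 whole-transcript arrays, 2 from wild-type and 2 from Adar2-/- mice. Both genotypes carried the Gria2 R/R allele, a pre-edited glutamate receptor gene that rescues the early death of mice lacking ADAR2, so the wild-type siblings were wild type at Adarb1 (the gene that encodes ADAR2) and not at Gria2. The mice carried no treatment and no stimulus was named, so the signals are those of brains as dissected. In whole-brain RNA, fewer cells of a type and less RNA per cell cannot be told apart.

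When a neuron fires, calcium enters through synaptic receptors and voltage-gated channels, and kinases activate factors such as CREB and SRF that are already bound at promoters. A first wave of genes is then transcribed within minutes without new protein synthesis. Many of these immediate early genes encode transcription factors, which in turn switch on a second wave of genes for synaptic and secreted proteins. Their mRNAs are short-lived, and their level in a brain follows recent activity, handling and stress as well as cell content. NPAS4 is a neuron-specific basic helix-loop-helix PAS factor that responds to calcium entry and is known for its role in inhibitory synapses.

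The array values are log2 signals, so a difference of 1 is a 2-fold change. The 4 arrays had median signals between 6.03 and 6.09. Adarb1 was measured at 10.50 and 10.45 in wild-type brains 1 and 2, and at 9.16 and 8.96 in Adar2-/- brains 1 and 2. The Adarb1 difference, Adar2-/- minus wild type, was -1.42 (limma SE 0.118, unadjusted p = 2.57e-05, adjusted p = 0.409), and that p was the lowest adjusted value among all clusters. Gria2, pre-edited in all of these mice, was at 10.85 and 10.96 in wild type and at 10.79 and 10.97 in Adar2-/-. In the limma comparison over all 33793 clusters, 0% passed an adjusted p of 0.05. At an unadjusted p below 0.05, 779 clusters (2.31%) were lower and 1230 (3.64%) were higher in Adar2-/- brains. With 2 arrays against 2, an exact permutation test of any single gene could not give a two-sided p below 0.333.

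Both Adar2-/- brains stood apart in signals of other tissue. The salivary gland gene Bpifa2 was at 12.61 in Adar2-/- brain 1 and between 5.09 and 5.28 in the other 3 brains. Prl, the pituitary hormone prolactin, was at 6.55 and 4.99 in wild type and at 10.11 and 9.66 in Adar2-/-. Olfactory bulb markers were low in Adar2-/- brain 2, where their 8 summed linear signals came to 1268 against 1623 to 1805 in the other 3 brains. These genes were picked out after their values were seen. The part of dissection in the results below was not tested.

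RefSeq sequences of GRCm38.p6 were set beside the genes, as windows of 250 bases before to 50 bases after each start site. A window was found for 7 of the 10 genes: Npas4, Fos, Fosb, Junb, Egr2, Egr4 and Nr4a1. In 6 of these 7 the RefSeq start site was the 5′ end of the array's transcript cluster. The letters TGACG, the core of the cyclic AMP response element to which CREB binds, were searched on both strands. TGACG was present in the nearest window of 6 of the 7 genes and in 20.8% of all 32851 windows. Egr2 was the exception for its nearest window, and 3 of its 5 windows, which overlap each other, did hold the core. The 250 bases before the start are shown for Npas4, Fos and Nr4a1, whose signals were lower in both Adar2-/- brains, and for Fosb, whose signals overlapped between genotypes. They lie at chr19:4989972-4990221 on the minus strand, chr12:85473640-85473889 on the plus strand, chr15:101266596-101266845 on the plus strand and chr7:19310046-19310295 on the minus strand, in that order. Each is written 5′ to 3′ on the gene's own strand and ends at the base before the start. Capitals mark TGACG, its reverse complement CGTCA, and TATAAA.
Npas4: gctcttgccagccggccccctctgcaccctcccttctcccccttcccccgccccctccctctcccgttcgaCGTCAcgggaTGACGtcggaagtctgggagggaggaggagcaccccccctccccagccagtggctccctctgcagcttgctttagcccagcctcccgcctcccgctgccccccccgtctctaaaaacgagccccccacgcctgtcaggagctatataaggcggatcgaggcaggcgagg
Fos: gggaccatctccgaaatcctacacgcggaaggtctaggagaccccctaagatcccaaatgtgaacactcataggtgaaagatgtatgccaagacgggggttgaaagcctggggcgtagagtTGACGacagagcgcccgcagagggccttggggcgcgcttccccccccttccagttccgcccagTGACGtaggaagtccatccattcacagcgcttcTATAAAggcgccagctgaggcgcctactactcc
Nr4a1: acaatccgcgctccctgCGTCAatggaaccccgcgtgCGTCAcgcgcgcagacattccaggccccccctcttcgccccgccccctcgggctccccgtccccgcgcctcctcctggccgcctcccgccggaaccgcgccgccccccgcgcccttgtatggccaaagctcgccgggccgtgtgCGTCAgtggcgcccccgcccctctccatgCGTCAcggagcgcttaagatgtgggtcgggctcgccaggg
Fosb: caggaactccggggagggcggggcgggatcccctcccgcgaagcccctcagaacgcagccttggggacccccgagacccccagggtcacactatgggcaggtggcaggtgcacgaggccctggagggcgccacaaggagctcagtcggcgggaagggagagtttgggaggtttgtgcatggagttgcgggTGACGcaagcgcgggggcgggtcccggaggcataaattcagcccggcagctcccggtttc

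Positions are counted from the start site, with the base before it as -1. Npas4 held the core at -179 on the reverse strand and at -169 on the forward strand. Fos held it at -129 and -66, both forward, and Fosb once, at -60. The Nr4a1 window held 4 cores, at -233, -213, -69 and -40, all on the reverse strand. Outside the printed stretches, Junb had 1 core at -106 and Egr4 had a pair, at -177 and -109. The core was therefore present both in genes whose genotypes were apart and in Fosb and Egr4, whose genotypes overlapped.

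Other motifs were searched in the same windows. The full palindrome TGACGTCA was in none of the 7 nearest windows and in 1.79% of all windows. The CArG box, bound by SRF, was in no nearest window. It was in 4 of the 5 windows of Egr2, all from start sites farther from the cluster's 5′ end, against 1.63% of all windows. The Egr2 windows that held the TGACG core are among these 4 and overlap each other, so the 4 are not separate finds. The EGR site GCGTGGGCG (0.612% of all windows) and the AP-1 site TGANTCA (7.81% of all windows) were each in 0 of the 7. With shares this low over all windows, 0 of the 7 says little about these genes. TATAAA was in 2 of the 7 windows, at -33 in Fos and at 1 in Junb, against 13.6% of all windows. A match of letters describes the window and shows no binding, and enhancers lie outside these windows.

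**Figure D1:**
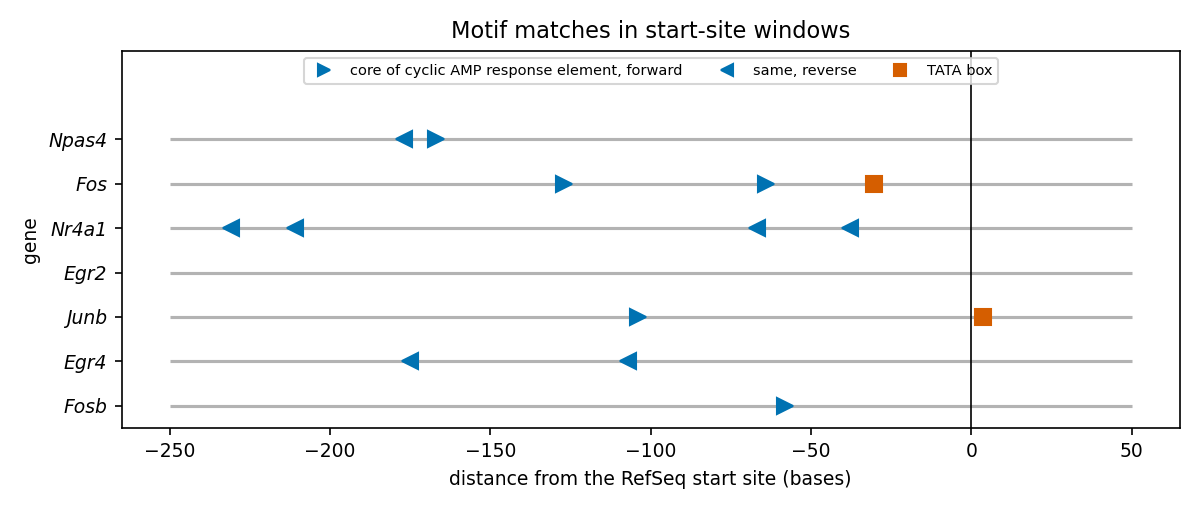
Matches of TGACG (blue arrows, pointing by strand) and TATAAA (orange squares) in the RefSeq window of each of 7 genes. The x axis is the distance from the start site in bases and each gray line is a window from 250 bases before to 50 bases after it. 6 of 7 windows hold the core, with 4 matches in Nr4a1 and none in the nearest window of Egr2.

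The 10 clusters held 16 to 30 probes each, all 10 were marked by the array design as unique to their locus, and they lay on 9 chromosomes. In the annotation deposited with the signals, 9 of the 10 carried a transcription or DNA-binding term, and Ier2 did not. Fos, Fosb and Junb carried the term for cellular response to calcium ion, which 25 clusters had in all. Their signals ran from 6.14 to 11.20, above the 3.49 to 4.40 of 4 Y-linked clusters, which show the background in these female brains. All 10 differences between the genotype means were negative, from -0.82 to -0.07, with a median of -0.20. Over all clusters the median difference was 0.005 and 47.7% were negative. In 7 of the 10 genes both Adar2-/- brains were below both wild-type brains, a pattern found in 5568 clusters, or 16.5% of all. In Fosb, Egr4 and Ier2 the genotypes overlapped. Since the genes were chosen by this difference, nothing is read from these counts.

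**Figure D2:**
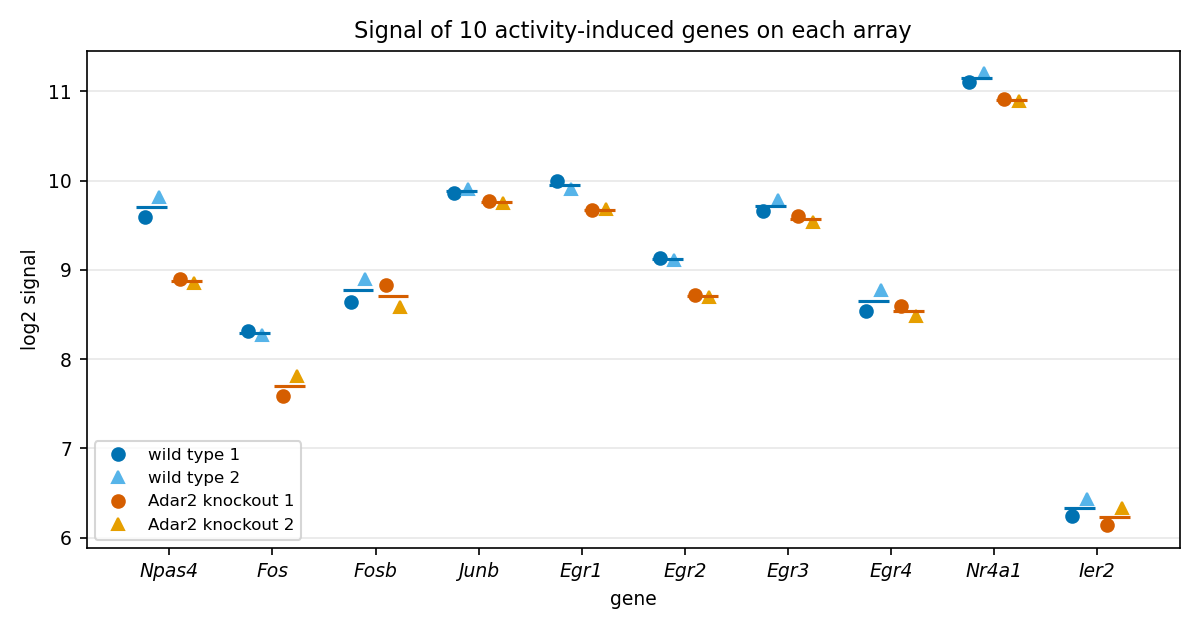
Log2 signal (y axis) of the 10 genes (x axis) on each of the 4 arrays, with wild type in blue and Adar2-/- in orange, circles for replicate 1 and triangles for replicate 2, and a bar at each genotype mean of 2 arrays. Npas4, Fos and Egr2 show the widest space between the genotypes, and Fosb, Egr4 and Ier2 overlap. Heights are not comparable between genes, which have different probes.

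Npas4 had the lowest difference of the 10. Its cluster of 23 probes lies at chromosome 19, 4984355 to 4989971, on the minus strand in the coordinates of the array table. Its signal was 9.59 in wild-type brain 1, 9.81 in wild-type brain 2, 8.90 in Adar2-/- brain 1 and 8.85 in Adar2-/- brain 2. Both Adar2-/- brains were low, and 0.69 separated the higher of them from the lower wild-type brain, more than the 0.22 between the wild-type brains. The wild-type mean was 9.70 ± 0.16 and the Adar2-/- mean 8.88 ± 0.035 (SD, n = 2 each), a difference of -0.82. On the linear scale the Adar2-/- mean was 56.5% of wild type, or 1.77-fold lower. Of all 33793 clusters, 23 had a lower difference than Npas4.

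Fos encodes the basic leucine zipper partner of JUN proteins in the AP-1 dimer. Its cluster of 30 probes lies at chromosome 12, 85473890 to 85477273, on the plus strand. Its signal was 8.32 and 8.27 in wild-type brains 1 and 2, and 7.59 and 7.81 in Adar2-/- brains 1 and 2. The wild-type brains were nearly equal, the Adar2-/- brains differed by 0.22 from each other, and the genotypes were 0.46 apart. The means were 8.30 ± 0.035 and 7.70 ± 0.16 (SD, n = 2 each), a difference of -0.60, and 98 clusters had a lower one.

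Fosb, the closest relative of Fos among these genes, gave another picture. Its cluster of 28 probes lies at chromosome 7, 19302696 to 19310045, on the minus strand. Its signal was 8.64 and 8.90 in wild type, and 8.83 and 8.58 in Adar2-/-. The highest value was a wild-type one and the lowest an Adar2-/- one, with the other 2 crossed between them. The difference of -0.07 was smaller than the 0.26 between the wild-type brains and the 0.25 between the Adar2-/- brains. It turned to 0.07 without wild-type brain 2 and to 0.06 without Adar2-/- brain 2, and was -0.20 without wild-type brain 1 and -0.19 without Adar2-/- brain 1.

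Junb, a JUN-family partner of the FOS proteins with 23 probes at chromosome 8, 84976909 to 84978748, was at 9.86 and 9.91 in wild type and at 9.77 and 9.75 in Adar2-/-. All 4 signals lay close together, and a narrow space of 0.09 separated the genotypes. Their difference was -0.13. It was -0.083 after quantile normalization, -0.076 after cyclic loess normalization and -0.165 after median centring. The differences of Fos, Fosb and Junb thus differed in size, with Adar2-/- means at 66.2%, 95.6% and 91.7% of wild type. The sign of the Fosb difference depended on which brains were kept.

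The 4 Egr genes encode zinc finger factors that bind the same GC-rich element. Egr2 (26 probes, chromosome 10, 67535475 to 67542188) was at 9.13 and 9.11 in wild type and at 8.72 and 8.70 in Adar2-/-. The brains of 1 genotype differed by only 0.02, and the genotypes were 0.39 apart, so that all 4 array pairs gave nearly the same value. The difference was -0.41, and 409 clusters had a lower one.

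Egr1 (24 probes, 34861207 to 34864984 on its chromosome), the family member most widely used as a marker of active neurons, was at 10 and 9.91 in wild type and at 9.67 and 9.68 in Adar2-/-. The Adar2-/- brains were the lower pair, by 0.23 at the nearest, and the difference was -0.28. Egr3 (20 probes, chromosome 14, 70077445 to 70080157) was at 9.66 and 9.78 in wild type and at 9.60 and 9.53 in Adar2-/-. Its genotypes were only 0.06 apart, less than the 0.12 between the wild-type brains, and its difference of -0.16 was -0.10 without wild-type brain 2. Egr4 (16 probes, chromosome 6, 85511122 to 85513589) was at 8.54 and 8.77 in wild type and at 8.60 and 8.48 in Adar2-/-. Wild-type brain 1 fell between the Adar2-/- brains, and the difference of -0.12 was within the 0.23 between the wild-type brains. It was -0.23 without wild-type brain 1, 0 without wild-type brain 2, -0.17 without Adar2-/- brain 1 and -0.06 without Adar2-/- brain 2.

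Nr4a1, an orphan nuclear receptor induced by calcium and cyclic AMP, had 26 probes at chromosome 15, 101266846 to 101274795. It was at 11.10 and 11.20 in wild type and at 10.91 and 10.89 in Adar2-/-. The genotypes were 0.19 apart, against 0.10 between the wild-type brains, and the difference was -0.25. Ier2, a growth factor-induced nuclear protein, had 22 probes at chromosome 8, 84661331 to 84662852. It had the lowest signals of the 10, at 6.24 and 6.43 in wild type and at 6.14 and 6.33 in Adar2-/-. In both genotypes replicate 2 was higher by 0.19, and the genotypes overlapped. Its difference of -0.10 was -0.005 without wild-type brain 2 or without Adar2-/- brain 1, and -0.20 without either of the other brains.

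**Figure D3:**
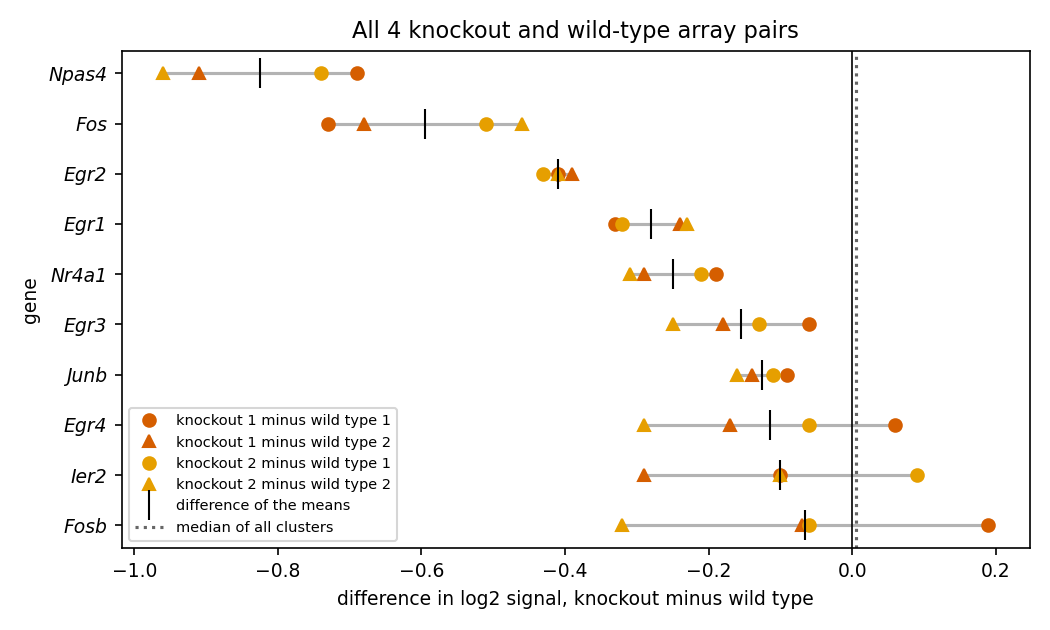
Differences in log2 signal (x axis), Adar2-/- minus wild type, for each of the 4 possible pairs of arrays, by gene (y axis), with a black tick at the difference of the means. The vertical solid line is at 0 and the dotted line at the median of all clusters, 0.005. Egr2 has the tightest pairs, from -0.43 to -0.39, Npas4 runs from -0.96 to -0.69, and Egr4, Ier2 and Fosb have a pair above 0.

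A difference at or below -0.25 was found in 5 of the 10 genes (Npas4, Fos, Egr2, Egr1 and Nr4a1) and in 5.52% of all clusters. Nr4a1 was just inside that line and Egr3, at -0.16, was the next outside it. In 6 of the 10 genes the space between the genotypes was wider than the larger difference within a genotype, as in 4.79% of all clusters. As this count comes from the difference that chose the genes, nothing is read from it. The genes without this were Egr3, with its genotypes just apart, and the 3 that overlapped.

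The brains of each genotype were also compared with each other. Wild-type brain 2 was higher than wild-type brain 1 in 7 of the 10 genes, by a median of 0.11 over the 10, where 49.3% of all clusters were higher and their median was 0. The exceptions were Fos, Egr1 and Egr2, each lower in wild-type brain 2, by 0.09 at most. Adar2-/- brain 2 was lower than brain 1 in 7 of the 10, against 51.1% of all clusters, with a median of -0.02 over the 10 and of -0.01 over all clusters. The median absolute difference between wild-type brains was 0.11 over the 10 genes and 0.13 over all clusters. Between Adar2-/- brains it was 0.06 and 0.13. Fos and Fosb went in opposite directions within each genotype: Fos was 0.05 lower and Fosb 0.26 higher in wild-type brain 2, and Fos was 0.22 higher and Fosb 0.25 lower in Adar2-/- brain 2. With 1 pair of brains in each genotype these values allow no test.

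Leaving out 1 brain at a time kept the median of the 10 differences between -0.23 and -0.15, and 7 to 10 of the genes had no overlap. With 1 brain against 2, groups are apart more easily. The Adar2-/- side was lower in 10 of the genes and 32.0% of all clusters without wild-type brain 1, in 7 and 31.8% without wild-type brain 2, in 9 and 33.5% without Adar2-/- brain 1, and in 8 and 31.1% without Adar2-/- brain 2. Without Adar2-/- brain 1, which carried the salivary signal, the median was -0.23, and without Adar2-/- brain 2, with its low olfactory markers, it was -0.22. The difference of Npas4 lay between -0.93 and -0.68 over all 14 alternative settings, Fos between -0.70 and -0.45, and Egr2 between -0.45 and -0.26.

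The rest of the activity pathway was taken from 6 gene lists with 135 clusters in all. These lists were drawn up with earlier results of these data known, so their counts and p-values are a description and no independent test. Of the 135, 0 passed an adjusted p of 0.05, and the lowest adjusted p was 0.829 (limma). At an unadjusted p below 0.05, 7 clusters (5.19%) were lower in Adar2-/- brains, where 2.31% of all clusters were, and 1 (0.741%) was higher, where 3.64% were. The median difference over the 135 was -0.04. The lower count was 4 without wild-type brain 1 and 3 after centring on forebrain excitatory neuron markers, and the higher count was 0 without any 1 of the 4 brains.

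Upstream of the 10 genes, the kinases and calcium signaling genes (29 clusters) had a median difference of -0.03, which ran from -0.07 to -0.005 with a brain left out. Mapk14, the stress-activated kinase p38 alpha, was the only one past the unadjusted threshold, at 9.39 and 9.44 in wild type and 9.22 and 9.02 in Adar2-/- (difference -0.30, unadjusted p = 0.0474, adjusted p = 0.834). Camk2a, the abundant calcium- and calmodulin-dependent kinase of the synapse, was at 11.84 and 11.80 in wild type and at 11.83 and 11.76 in Adar2-/-, with overlapping genotypes. The 21 factors and coactivators that are present before a stimulus and are switched on or off by these signals, at promoters or by moving between cytoplasm and nucleus, had a median of -0.03 (-0.07 to -0.01 with a brain left out). Of them 0 were past the unadjusted threshold in either direction. Mkl2, an SRF coactivator, and Hdac4, a repressor of MEF2 factors, had the widest differences, -0.22 (unadjusted p = 0.108) and -0.13 (unadjusted p = 0.323). With a brain left out, Mkl2 ran from -0.30 to -0.13 and Hdac4 from -0.21 to -0.04, both nearest to 0 without wild-type brain 1. Creb1 was at -0.08 (unadjusted p = 0.513) and Srf at -0.06 (unadjusted p = 0.579).

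The dimer partners and corepressors (15 clusters) also held 0 past the unadjusted threshold, with a median of -0.06 (-0.08 to -0.01 with a brain left out). Rxrg, a retinoid X receptor and partner of NR4A1, was at 8.46 in wild-type brain 1 and between 7.60 and 7.84 in the other 3. Its difference of -0.44 (unadjusted p = 0.0918) became -0.13 without wild-type brain 1. Batf3, a basic leucine zipper partner of JUN proteins, was at 0.21 (unadjusted p = 0.212), with 0.37 without Adar2-/- brain 1 and 0.05 without Adar2-/- brain 2. Arnt2, the dimer partner of NPAS4, was at 11.25 and 11.19 in wild type and at 11.07 in both Adar2-/- brains, and its difference of -0.15 had an unadjusted p of 0.195. The orphan receptor genes Nr4a2 and Nr4a3 were at -0.18 (unadjusted p = 0.162) and 0.02 (unadjusted p = 0.851).

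Among the 26 other inducible transcription factors, 1 was lower and 0 were higher at the unadjusted threshold. This was Btg2, an antiproliferative transcriptional coregulator, at 8.82 and 8.97 in wild type and at 8.27 and 8.48 in Adar2-/- (difference -0.52, SE 0.126, unadjusted p = 0.00668, adjusted p = 0.834). Of the 26, 14 had a negative and 12 a positive difference, and their median of -0.06 ran from -0.09 to -0.03 with a brain left out. Atf3, a stress-induced factor, was higher in both Adar2-/- brains, by 0.15 (unadjusted p = 0.208).

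The 14 genes of the feedback list, among them the DUSP phosphatases that shut off MAP kinase signaling, held 3 lower (2.31% of all clusters were) and 1 higher (3.64% of all clusters were) at the unadjusted threshold. Their median of -0.05 was -0.11 without Adar2-/- brain 1 and 0.003 without Adar2-/- brain 2. Dusp1 was at 10.46 and 10.41 in wild type and at 9.95 and 10.04 in Adar2-/- (difference -0.44, unadjusted p = 0.00627). Dusp6 differed by -0.30 (unadjusted p = 0.0313) and the pseudokinase gene Trib1 by -0.28 (unadjusted p = 0.0434). Dusp2 went the other way, at 6.65 and 6.72 in wild type and 7.01 and 6.92 in Adar2-/- (difference 0.28, unadjusted p = 0.0400). All 4 had an adjusted p of 0.834.

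Of the 31 induced effectors, 2 were lower and 0 were higher at the unadjusted threshold, and their median of -0.07 ran from -0.08 to -0.04 with a brain left out. Cyr61, a secreted matrix protein, was at 8.84 and 8.64 in wild type and at 7.76 and 8.01 in Adar2-/- (difference -0.85, SE 0.138, unadjusted p = 0.000926, adjusted p = 0.829). Rasgef1b, a Ras family exchange factor, was at 9.05 and 8.97 in wild type and at 8.63 and 8.41 in Adar2-/- (difference -0.49, unadjusted p = 0.00752). The best known synaptic effectors were not past it. Arc, the regulator of AMPA receptor endocytosis, differed by -0.09 (unadjusted p = 0.444), Bdnf, a neurotrophin, by 0.12 (unadjusted p = 0.281), and Nptx2, a synaptic pentraxin, by -0.27 (unadjusted p = 0.0694). Inhba, a secreted subunit of activin, differed by 0.25 (unadjusted p = 0.0736).

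With each brain left out in turn, the difference of Cyr61 ran from -0.98 to -0.73, that of Btg2 from -0.62 to -0.41, that of Dusp1 from -0.48 to -0.40 and that of Rasgef1b from -0.60 to -0.38. Dusp6 ran from -0.33 to -0.26, Trib1 from -0.34 to -0.21, Mapk14 from -0.40 to -0.20 and Dusp2 from 0.23 to 0.33. As the genotypes did not overlap in any of these 8 genes, leaving out a brain could not turn a sign.

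**Figure D4:**
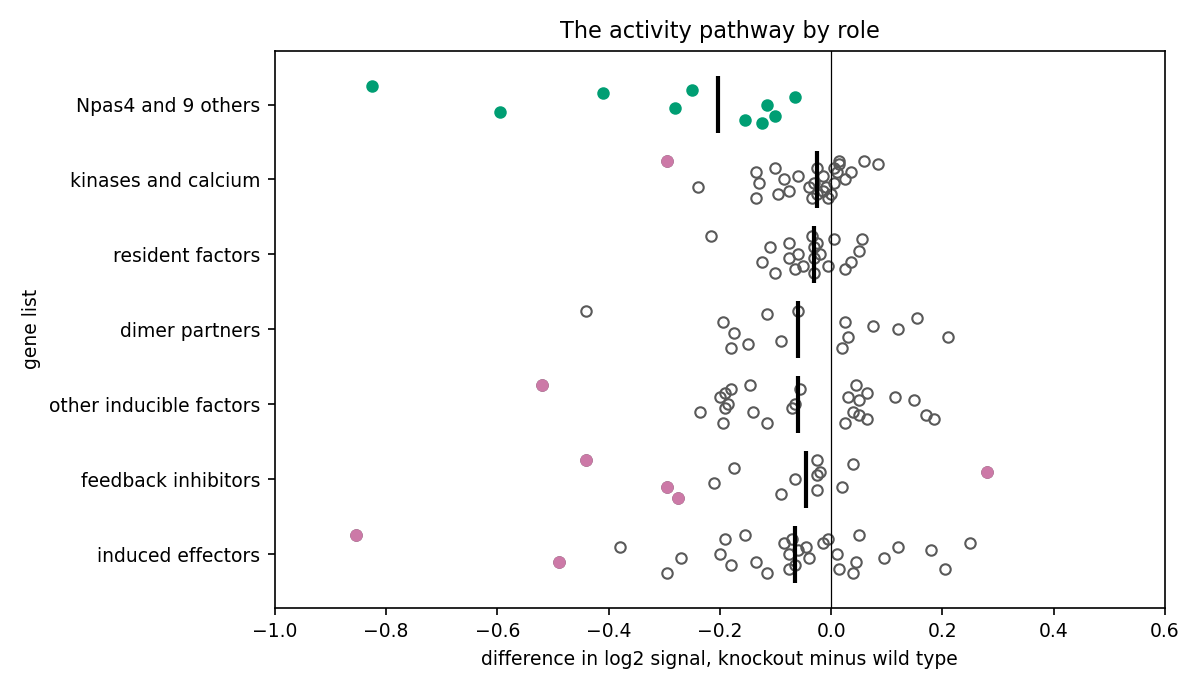
Differences in log2 signal, Adar2-/- minus wild type (x axis), for the 10 genes (green, not tested) and for the 6 pathway lists (y axis). Each circle is a cluster, filled pink where the unadjusted limma p was below 0.05, and the black bar is the median of the list. The list medians lie between -0.07 and -0.03 and ran from -0.11 to 0.003 with a brain left out, the 10 genes were chosen on this difference, and 0 of the 135 clusters passed the adjusted threshold.

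Markers of cell types and brain regions were set beside these values, because several of the 10 genes are known for strong expression in cortex, hippocampus and striatum. The 11 general neuron markers had a median difference of -0.02, and 0 were past the unadjusted threshold. Their summed linear signals ran from 29890 to 30270 in wild type and from 28780 to 28910 in Adar2-/-. Markers of cortical and hippocampal excitatory neurons had a median of -0.19 over 12 clusters, with 9 negative and 3 positive differences. Both Adar2-/- brains were below both wild-type brains in 7 of the 12 (16.5% of all clusters) and above them in 2 (17.7% of all clusters), Cux2 (0.13) and Neurod2 (0.09). With a brain left out the median ran from -0.20 to -0.11. Their summed signals were 13730 and 12690 in wild type and 12250 and 12030 in Adar2-/-. Of these 12, 2 were lower at the unadjusted threshold, Fezf2, a deep-layer cortical factor (-0.38, unadjusted p = 0.0127), and Neurod6, a factor of cortical excitatory neurons (-0.35, unadjusted p = 0.0462), each with an adjusted p of 0.834. Striatal markers had a median of -0.15 over 9 clusters, with 8 negative (47.7% of all clusters) and 1 positive difference. Both Adar2-/- brains were below both wild-type brains in 6 of the 9 (16.5% of all clusters) and above them in 0 (17.7% of all clusters). Drd1a, a dopamine receptor, was past the unadjusted threshold. The striatal markers had summed signals of 5653 to 5767 in wild type and 5078 to 5189 in Adar2-/-. With a brain left out their median ran from -0.20 to -0.14. The lowest signal of any marker in these forebrain and striatal lists was 5.96, above the Y-linked background.

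With each array centred on the forebrain excitatory markers, a setting chosen after seeing the data, the median difference of the 10 genes was -0.05. This centring adds the same 0.15 to the difference of every cluster, so the genes that turn sign are those whose difference was smaller than that. Npas4 was then at -0.68, Fos at -0.45, Egr2 at -0.26, Egr1 at -0.13 and Nr4a1 at -0.10. Egr3 was at -0.005, and Fosb (0.09), Junb (0.03), Egr4 (0.04) and Ier2 (0.05) had a positive sign. Of the 10 genes, 4 then had both Adar2-/- brains below both wild-type brains, as did 2.82% of all clusters. With centring on the general neuron markers the median was -0.20, and 7 genes were apart, as were 15.7% of all clusters in this direction. Since the genes were chosen on this contrast, nothing is read from these counts. The part of cell and regional content in these differences was not tested.

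**Figure D5:**
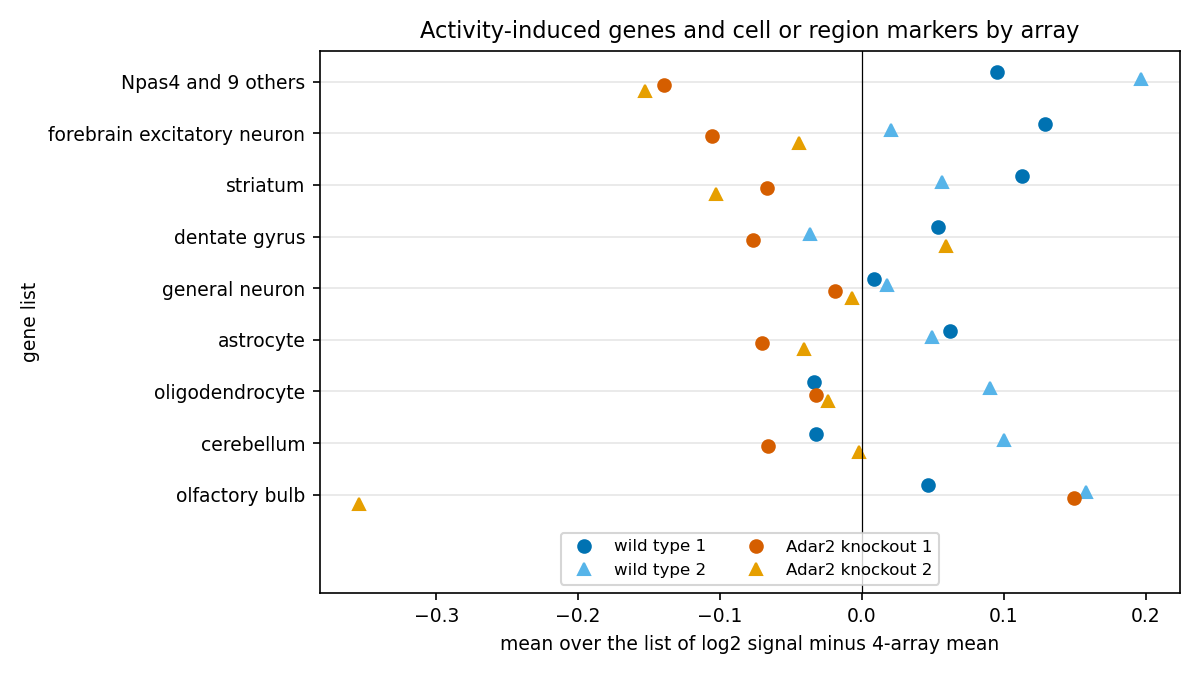
Mean over each gene list (y axis) of the log2 signal minus the gene's 4-array mean (x axis), for each array, with wild type in blue and Adar2-/- in orange, circles for replicate 1 and triangles for replicate 2. Both wild-type brains lie above 0 and both Adar2-/- brains below it for the 10 activity-induced genes and for the forebrain excitatory, striatal, astrocyte and general neuron markers, the last within -0.02 and 0.02, and olfactory markers reach -0.35 in Adar2-/- brain 2.

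Among markers of other cell types, the 8 astrocyte markers had a median of -0.12, which ran from -0.15 to -0.09 with a brain left out. Of these, 6 had a negative difference (47.7% of all clusters) and 4 had both Adar2-/- brains below both wild-type brains (16.5% of all clusters). Of these 8, the gap junction gene Gja1 was past the unadjusted threshold (-0.27, limma unadjusted p = 0.0473). Oligodendrocyte markers had a median of -0.02, with the myelin gene Mog past the threshold (-0.35, limma unadjusted p = 0.0258), and microglial markers of -0.09 with 0 of 8. With a brain left out the oligodendrocyte median ran from -0.10 to 0.06 and the microglial one from -0.20 to 0.02, so both changed sign. Endothelial and mural markers had a median of -0.04 (-0.12 to 0.06 with a brain left out), with the transporter gene Slco1a4 higher (0.40, limma unadjusted p = 0.0180). Blood markers had a median of -0.26 over 7 clusters, with Alas2, an enzyme of heme synthesis in red cells, lower (-0.73, limma unadjusted p = 0.0467), and this median ran from -0.48 to -0.04 with a brain left out.

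Among markers of other regions, those of cerebellum had a median of -0.11 (-0.13 to -0.04 with a brain left out) with 0 of 12 past the unadjusted threshold. Dentate gyrus markers had a median of 0.005 (-0.06 to 0.07 with a brain left out), with Prox1, a granule cell factor, lower (-0.38, limma unadjusted p = 0.0141). Olfactory bulb markers had a median of -0.11, with 1 of 8 (Cdhr1) lower. With a brain left out this median ran from -0.31 without Adar2-/- brain 1 to 0.05 without Adar2-/- brain 2. Choroid plexus markers had a median of 0.04 with 0 of 9 past the threshold, and the median was -0.12 without wild-type brain 1 and 0.24 without wild-type brain 2. Pituitary markers had a median of 0.15 (0.11 to 0.20 with a brain left out), with 3 of 10 higher at the unadjusted threshold (Prl, Gh and Pomc) and summed signals of 2483 to 2739 in wild type and 3385 to 4567 in Adar2-/-. The adjusted p was 0.770 at the lowest over these marker lists (limma).

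Genes with a 4-array pattern most like that of Npas4 were taken as the nearest by Euclidean distance between values centred on their own mean, over 26554 clusters with 1 gene symbol. The nearest was Serpinb1a, a serine protease inhibitor, at a distance of 0.153, with 6.12 and 6.25 in wild type and 5.37 and 5.17 in Adar2-/-. The next were Olfr787 (0.164), Snora36b (0.195), 2900064A13Rik (0.197) and Vmn2r74 (0.197), whose signals ran from 3.02 to 4.70 and so lay at or near the Y-linked background. Nearest to the mean pattern of the 10 genes were 4930552P12Rik (0.011), Eif2b4 (0.018), Olfr47 (0.018), Gyg (0.019) and Wdr95 (0.022), of which Olfr47, at 2.36 to 2.71, was below the Y-linked background. This likeness rests on 4 arrays and is a description.

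The study considered Npas4 as a predicted target of miR-335-5p, a microRNA whose mature sequence in RefSeq (GRCm38.p6, chr6:30741314-30741336, plus strand) is shown with its seed, bases 2 to 8, in capitals.
mmu-miR-335-5p: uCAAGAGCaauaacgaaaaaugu

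The array holds a cluster for the precursor locus, Mir335, which was at 4.64 and 4.94 in wild type and at 4.88 and 4.58 in Adar2-/- (difference -0.06, limma SE 0.16, unadjusted p = 0.722, adjusted p = 0.976). These signals were close to the Y-linked background, the genotypes overlapped, and such a cluster does not measure the mature microRNA. The study itself reported more mature miR-335-5p in Adar2-/- brains by small RNA sequencing. It also reported lower Npas4 on these arrays and by RT-qPCR.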

How the data were processed

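Whole-brain total RNA was hybridized to Affymetrix whole-transcript mouse gene arrays by a core facility. The authors deposited log2 signals of 33793 transcript clusters, rounded to 2 decimals, made with Affymetrix Expression Console and RMA per the submitters' processing notes, which give no version. The table's genome build is not given in the sources used here. Columns of the authors' own means, log ratios, fold changes and p-values were not used. Groups and replicate numbers came from the sample titles, and the mice are biological replicates. The number of arrays limits the precision.

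The 10 genes and all lists were chosen with earlier results of these data known. Each symbol was represented by its cluster with the highest mean over the 4 arrays. Genotypes were compared in R 4.3.3 with limma 3.58.1 (lmFit and eBayes with a genotype term alone, two-sided p-values, Benjamini-Hochberg adjustment over all clusters, threshold 0.05), without further normalization or filter. Outside the 10 genes, those named were up to 8 per list past the unadjusted threshold, otherwise the 2 with the widest difference, and the 5 nearest patterns. Adarb1 and Gria2 were named as checks. Camk2a, Creb1, Srf, Arnt2, Nr4a2, Nr4a3, Atf3, Arc, Bdnf, Nptx2, Inhba, Cux2, Neurod2, Mir335 and Bpifa2 fall outside this rule and were added after their values were seen. The fit was tested on simulated data. Deviations of same-numbered brains were hardly correlated (r = 0.0516 across 33793 clusters, which are not independent). The titles do not say whether the numbers mark a litter or batch, and this value cannot decide it. Sequences are from RefSeq tables of GRCm38.p6. Tables were read with Python 3.11.15, pandas 2.3.3 and numpy 2.4.6, and plots were drawn with matplotlib 3.10.9.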

Additional observations from a re-analysis of the deposited data

How the results depend on the processing

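Results were recomputed after cyclic loess or quantile normalization, after median centring, with clusters above the median signal alone, with the replicate number as a block, with an intensity trend, without clusters that can cross-hybridize, without each brain, and as the ratio of linear signals, which gives a value for the 10 genes and no test. Centring on forebrain or general neuron markers and counting every cluster of a symbol were chosen after seeing the data. With the replicate number as a block, the 10 differences were as reported, 0 clusters passed the adjusted threshold, and 0 pathway clusters were higher at the unadjusted threshold. The lower pathway count of 7 was 10 with median centring, 9 with an intensity trend, 4 with cyclic loess, 3 with forebrain centring and 4 to 8 with a brain left out. The higher pathway count of 1 was 0 with median centring, 3 with forebrain centring and 0 with any brain left out. All clusters past the unadjusted threshold numbered 2009, 989 among those above the median signal, 4155 with forebrain centring (3 of them past the adjusted threshold) and 1221 to 1801 with a brain left out, the lowest without wild-type brain 1. With forebrain centring the median of the 10 genes was -0.053 and 4 were apart. Signs turned for Fosb, which ran from -0.195 without wild-type brain 1 to 0.065 without wild-type brain 2, and was 0.06 without Adar2-/- brain 2 and 0.085 with forebrain centring. With forebrain centring they also turned for Junb (0.025), Egr4 (0.035), Ier2 (0.05) and Hdac4 (0.025). Forebrain centring adds 0.15 to every difference, which fixes those signs and bears on the counts under that setting. Fewer clusters were compared where only those above the median signal were kept. The cause of the other moves was not tested. Of the other values of single genes, 262 moved by less than 1 SD between replicates and 26 by more with the same sign. The 262 include the values that were fixed in advance, so this count is no measure of stability. With 2 brains per genotype, a brain left alone is assumed to vary like the other genotype.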

Other observations

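Genes that respond to the state of the animal at death were set beside the 10 activity-induced genes. Of 15 glucocorticoid-responsive genes, 1 was higher in Adar2-/- brains at an unadjusted p below 0.05 and 0 were lower, with a median difference of 0.03 on the log2 scale. This median was -0.03 without wild-type brain 1, 0.14 without wild-type brain 2 and -0.02 without Adar2-/- brain 1. The higher gene was Arrdc2, an arrestin-domain gene, at 0.38 (limma, unadjusted p = 0.0243, adjusted p = 0.834). Of 10 heat shock genes 0 were past the unadjusted threshold, and their median of -0.03 ran from -0.08 to 0.07 with a brain left out. Within the list, the inducible chaperone genes Hspa1b and Hspa1a lay on opposite sides, at 0.26 and -0.25. Hspa1b was at 8.79 in Adar2-/- brain 2 and between 8.23 and 8.26 in the other 3 brains. These neighboring genes are near-identical copies, so some probes may respond to both. Hspa1a was at 8.04 and 8.06 in wild type and at 7.84 in Adar2-/- brain 2, so the signals did not move together.

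Of 14 circadian clock genes, 0 were past the unadjusted threshold, with a median of -0.05 (-0.07 to -0.03 with a brain left out). Cry2, a repressor in the clock loop, was at 9.52 and 9.65 in wild type and at 9.29 and 9.36 in Adar2-/- (unadjusted p = 0.0571). Per1, which is also induced by activity, was at 10.20 and 10.32 in wild type and at 10.49 and 10.40 in Adar2-/- (unadjusted p = 0.145), the opposite direction to the 10 genes. No gene of these 3 lists passed the adjusted threshold.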
